A study of Mus musculus with 12 samples.

Results

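The solute carriers are the largest group of membrane transporters in mammals, and their genes carry symbols that start with Slc and a family number. Members were taken by that symbol: genes named Slc plus a digit in the platform annotation, with a detection p-value under 0.05 on all 12 arrays, each represented by its probe with the highest mean signal. Slc2a1, Slc2a3, Slc16a1, Slc16a3, Slc11a2 and Slc40a1, the transporters of glucose, lactate and iron usually studied under hypoxia, were left out. The rule gave 130 genes, of 326 Slc genes named on the array and of 7820 genes that the same detection rule finds among all named genes. The rule uses no measured difference between groups, but members were chosen with earlier results of these data known. Because it asks for detection on all 12 arrays, the rule also leaves out genes undetected in a whole group.

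Solute carriers move amino acids, sugars, ions, metals, vitamins and metabolites across the plasma membrane and the membranes of organelles, driven by the gradients of their substrates or of sodium, protons or other ions. Family numbers group proteins by sequence, so that Slc25 holds the carriers of the mitochondrial inner membrane, Slc35 the nucleotide sugar transporters of the Golgi and endoplasmic reticulum, and Slc30 and Slc39 the zinc transporters that empty and fill the cytosol. Some transporters work in pairs, as Slc3a2, a glycoprotein that carries light chains such as Slc7a5 to the cell surface, and several amino acid transporters are known targets of ATF4, a transcription factor of the amino acid stress response.

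The cells came from the male wild type mouse embryonic stem cell line CCE (129/Sv). Embryoid bodies were grown for 4 days, Flk1+ vascular progenitors were sorted and plated on collagen IV for a further 4 days, and CD31+ cells were then sorted for total RNA, with 1 Illumina bead array per sample. The 4 groups of 3 biological replicates were normoxia (21% O2), normoxia with 4 µmol/l L-685.458, hypoxia (1.5 to 2% O2) and hypoxia with 4 µmol/l L-685.458, where L-685.458 blocks gamma-secretase, a protease needed to release the active part of Notch receptors. All groups derive from 1 cell line and share the same medium, and the labels name no vehicle for the groups without inhibitor. The design asks how low oxygen and gamma-secretase inhibition, alone and together, change expression in these cells.

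Each array detected 13085 to 13901 probes. The 11 endothelial markers measured had a mean log2 signal of 11.40 to 11.98 on the 12 arrays. Markers of other cell types were also measurable. Pluripotency markers had a mean log2 signal of 6.48 to 9.38 over 10 genes, and erythroid markers 7.21 to 8.67 over 7 genes. Mural markers had 8.50 to 9.56 over 5 genes, endoderm markers 7.43 to 8.58 over 3 and haematopoietic markers 7.59 to 8.40 over 7. Replicates 1 and 2 lay close together and replicate 3 apart in every group. This was measured over the 7820 genes detected on all 12 arrays, with 1 probe per gene. Log2 differences between replicates had a standard deviation of 0.171 to 0.202 for replicates 1 and 2 and 0.342 to 0.481 where replicate 3 was one of the pair. Pluripotency markers moved with that split except in hypoxia without inhibitor, at 6.48 to 8.36 on the replicate 3 arrays and 7.98 to 9.38 on the others, and their part in the results was not tested. Some lists also moved with oxygen. Averaged over inhibitor, 4 of 7 erythroid markers fell (median log2 difference -0.96). All 10 pluripotency markers had negative differences (median -0.68), of which none passed the limma test. Of 7 haematopoietic markers 1 was called higher (median 0.37). No endothelial, endoderm or mural marker was called. Lists moved with the inhibitor as well, though no marker was called for it averaged over oxygen. All 10 pluripotency markers had negative inhibitor differences (median -0.71). Positive ones were seen for 2 of 11 endothelial, 5 of 5 mural, 6 of 7 erythroid, 4 of 7 haematopoietic and 1 of 3 endoderm markers. The part of these cell types in the oxygen and inhibitor differences below was not tested. In bulk RNA from sorted cells, fewer cells of a type and less RNA per cell cannot be told apart. Of 25 hypoxia-inducible factor targets measured outside the Slc genes, 17 rose in hypoxia over both inhibitor states, with a median log2 difference of 0.73, and none fell.

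Of the 320 Slc genes on the array that were not left out, 130 were detected on all 12 arrays, 89 on some and 101 on none. Mitochondrial carriers were detected most completely among the large classes, with 25 of 39 genes on every array, followed by the metal transporters with 17 of 27 and the sugar and nucleotide sugar transporters with 22 of 53. Within these, Slc35 gave 17 of 24 genes and the zinc importers of Slc39 gave 7 of 12. Amino acid transporters gave 20 of 62 and inorganic ion transporters 16 of 52. Transporters of organic acids, cations and anions were undetected on all arrays for 29 of 49 genes. None of the 10 Slc26 anion exchangers and 2 of the 18 Slc6 genes, which carry neurotransmitters, amino acids or creatine, were detected on every array. An undetected gene has a signal within background on its probes, and its RNA may still be present below that level. Classes were assigned by Slc number, so that a member can carry another substrate, as Slc5a6, a vitamin transporter, in the sugar class. The names Slc9a3r1, Slc9a3r2, Slc4a1ap and Slc7a6os belong to proteins that are not transporters.

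**Figure D1:**
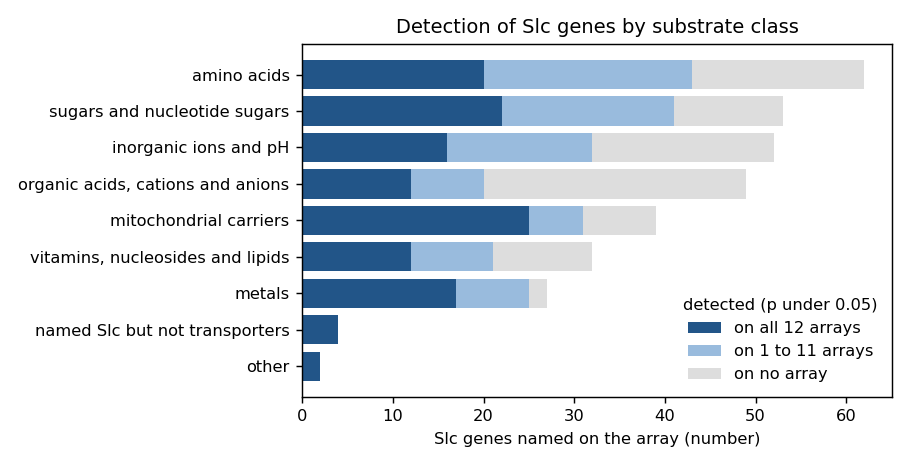
Number of Slc genes on the array in each substrate class (horizontal axis), split into those detected on all 12 arrays, on 1 to 11 arrays and on none, at a detection p-value under 0.05. Mitochondrial carriers reached 25 of 39 genes on all arrays, organic acid, cation and anion transporters 12 of 49.

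Hypoxia against normoxia, averaged over the 2 inhibitor states, changed 7 of the 130 members at a limma adjusted p under 0.05, which is 5.38% of them. The background was close to this: 6.05% of the 7820 genes that met the same detection rule were called, 3.08% higher and 2.97% lower. Among members, Slc46a3, Slc41a3 and Slc35b3 rose and Slc9a3r2, Slc19a2, Slc2a8 and Slc25a20 fell. The median log2 difference of all 130 members was -0.005, against -0.014 for the 7820 genes, and 63 members, or 48.5%, had a positive difference, against 46.6% of the genes. The share of members called was thus near that of all genes detected on these arrays. Levels are log2 of the quantile normalized signal plus an offset of 16, and differences below are on that scale, which understates folds of dim probes. Since each probe has its own brightness, levels are compared between samples and not between genes.

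Slc19a2, the plasma membrane transporter of thiamine (vitamin B1), gave the smallest adjusted p among the members. Its log2 signals were 10.32, 10.25 and 10.38 in normoxia and 10.37, 10.17 and 10.20 in normoxia with inhibitor. They were 9.88, 9.89 and 9.93 in hypoxia and 9.72, 9.74 and 9.53 in hypoxia with inhibitor. Every hypoxic array lay below every normoxic one. The averaged difference was -0.50 (SE 0.07, limma adjusted p = 0.00344), a 1.41-fold lower signal. It was also the single member called in hypoxia against normoxia with inhibitor, at -0.58 (SE 0.11, limma adjusted p = 0.0352), where 1.06% of the genes were called and 0.575% were called lower. That second call was lost when any 1 of 8 arrays was left out, those of replicates 1 and 2 in all groups, with an adjusted p of up to 0.139. Slc19a1, the folate transporter of the same family, had an averaged difference of 0.11 (limma adjusted p = 0.584).

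The promoter of Slc19a2 is shown because this gene gave the firmest oxygen difference of the family. The window runs from 250 bases before to 50 bases after the annotated start, at chr1:164248796-164249095 on the plus strand of GRCm38.p6 (RefSeq), and capitals mark each GCGTG, a form of the core bound by hypoxia-inducible factors.
Slc19a2: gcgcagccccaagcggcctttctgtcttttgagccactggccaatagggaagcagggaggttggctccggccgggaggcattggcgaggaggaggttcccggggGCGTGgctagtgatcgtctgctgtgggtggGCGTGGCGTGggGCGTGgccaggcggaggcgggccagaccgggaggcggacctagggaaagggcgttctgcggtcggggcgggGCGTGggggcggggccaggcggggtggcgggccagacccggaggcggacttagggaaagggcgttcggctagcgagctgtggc
GCGTG, searched on both strands, occurs 5 times in this window, and 2 of the copies adjoin. It is a common string: 50.7% of 142 promoter windows of 105 matched members hold it, against 51.8% of 8254 windows of genes detected on all arrays and 32.4% of all 32851 windows. The other core form, ACGTG, was present in 31% of member windows, 26.2% of windows of detected genes and 19.6% of all windows. A match is a description of the letters and not evidence of binding.

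Slc25a20 is the carnitine and acylcarnitine carrier that brings fatty acids into mitochondria for oxidation. Its log2 signals were 10.27 to 10.44 on the 6 normoxic arrays and 9.71 to 10.01 on the 6 hypoxic arrays, without overlap. The averaged difference was -0.45 (SE 0.08, limma adjusted p = 0.00705), and it was nearly the same without inhibitor, at -0.45, and with it, at -0.46. A second probe of Slc25a20 gave -0.44 (limma adjusted p = 0.0799). The other 24 mitochondrial carriers were not called. Of the 25 carriers, 10 had positive differences, and the class median was -0.06. The ADP and ATP carrier Slc25a5 was at -0.18 (adjusted p = 0.303) and the citrate carrier Slc25a1 at 0.02 (adjusted p = 0.942). The phosphate carrier Slc25a3 was at -0.10 (adjusted p = 0.467), but its dimmer second probe fell by 0.33 (adjusted p = 0.0453), so its probes disagree. All adjusted p-values here are from limma.

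Slc9a3r2 encodes NHERF2, a scaffold that binds sodium-proton exchangers and other membrane proteins and is not itself a transporter. Its log2 signals in normoxia were 10.74, 10.82 and 11.34, and with inhibitor 10.70, 10.80 and 11.01. In hypoxia they were 10.16, 10.02 and 10.54, and with inhibitor 10.35, 10.34 and 9.98. Hypoxic arrays were all lower than normoxic ones, and replicate 3 was the highest of its group except in hypoxia with inhibitor, where it was the lowest. The averaged difference was -0.67 (SE 0.13, limma adjusted p = 0.0157), a 1.59-fold lower signal, and a second probe gave -0.41 (limma adjusted p = 0.422). Its paralogue Slc9a3r1 (NHERF1) was at -0.13 (limma adjusted p = 0.681).

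Slc2a8 encodes GLUT8, a glucose transporter held mostly inside cells, and is the single facilitated glucose transporter among the members. Its log2 signals were 6.44 to 6.87 on the normoxic arrays and 5.81 to 6.41 on the hypoxic arrays, so the ranges nearly met without overlap. The averaged difference was -0.48 (SE 0.11, limma adjusted p = 0.0286). The oxygen difference was -0.67 without inhibitor and -0.30 with it, and the interaction did not pass (limma adjusted p = 1.00).

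Slc46a3, a transporter of the lysosomal membrane, showed the largest called rise. Its log2 signals in normoxia were 7.77, 7.98 and 8.02, and with inhibitor 7.67, 7.44 and 8.05. In hypoxia they were 9.13, 9.10 and 9.09, and with inhibitor 8.64, 8.69 and 7.46. Of the 6 hypoxic arrays, 5 lay above all normoxic arrays, while replicate 3 of hypoxia with inhibitor lay within the normoxic range. The averaged difference was 0.86 (SE 0.20, limma adjusted p = 0.0273), a 1.82-fold higher signal, and it was 1.06 without that array (limma adjusted p = 0.000404). Its relative Slc46a1, the proton-coupled folate transporter, was at 0.12 (limma adjusted p = 0.791).

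Slc41a3, a magnesium transporter, rose by 0.47 (SE 0.11, limma adjusted p = 0.0362). Its log2 signals were 6.46 to 7.01 in normoxia and 6.89 to 7.34 in hypoxia over both inhibitor states, and the groups overlapped through replicate 3 of normoxia with inhibitor, at 7.01. A second probe gave 0.46 (limma adjusted p = 0.168). Slc35b3, which moves the sulphate donor PAPS into the Golgi, rose by 0.37 (SE 0.09, limma adjusted p = 0.0332). Its log2 signals were 10.02 to 10.44 in normoxia and 10.49 to 10.59 in hypoxia, without overlap, and the normoxic replicate 3 arrays were the highest of theirs. Its 2 other probes gave 0.38 (limma adjusted p = 0.0445) and 0.49 (limma adjusted p = 0.0852). The Slc35b3 call was lost under the authors' own processed table (adjusted p = 0.0606) and under scaling to the 75th percentile (adjusted p = 0.0566), with the same direction.

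**Figure D2:**
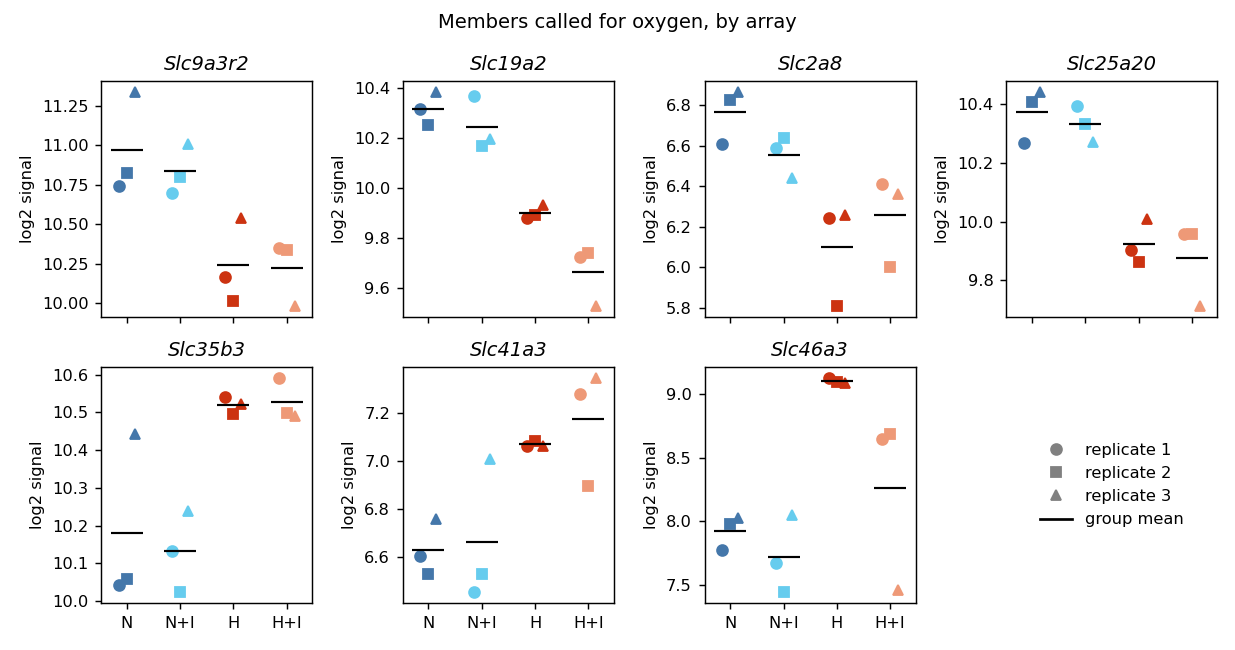
Log2 signal (vertical axes, 1 panel per gene, axes not starting at 0) of the 7 members called for oxygen on the 12 arrays, by group (N normoxia, N+I normoxia with inhibitor, H hypoxia, H+I hypoxia with inhibitor). Symbols are replicates and lines are group means of 3 arrays. Slc19a2, Slc25a20, Slc9a3r2, Slc2a8 and Slc35b3 do not overlap between oxygen levels, and Slc46a3 falls back to 7.46 in replicate 3 of hypoxia with inhibitor.

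The calls for Slc19a2, Slc25a20 and Slc9a3r2 held when each of the 12 arrays was left out in turn. Leaving out 1 array ended the call for Slc2a8 in 6 of 12 cases, for Slc46a3 in 8, and for Slc35b3 and Slc41a3 in 9 each, with limma adjusted p-values of at most 0.0949 and the same direction throughout. The arrays concerned were replicates 1 and 2 of all groups for Slc46a3, the same and replicate 3 of hypoxia for Slc35b3, and for Slc41a3 the same as Slc35b3 except that replicate 3 of hypoxia with inhibitor took the place of its replicate 2. For Slc2a8 they were replicate 2 of all groups, replicate 3 of normoxia and replicate 1 of normoxia with inhibitor. With the replicate number as a block, 13 members were called, 7 higher and 6 lower, against a background of 10.1% of the genes, and all 7 calls remained.

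The remaining classes held few calls. Among the amino acid transporters none of 20 was called, 11 had positive differences and the median was 0.05, which became -0.01 without replicate 3 of hypoxia with inhibitor and -0.06 without replicate 3 of all groups. The glutamate transporters Slc1a2 and Slc1a3 had differences of -0.91 (SE 0.34, limma adjusted p = 0.164) and -0.60 (SE 0.28, limma adjusted p = 0.254). Slc1a4, which exchanges neutral amino acids, was at 0.53 (limma adjusted p = 0.313), and at 0.24 without replicate 3 of hypoxia with inhibitor (limma adjusted p = 0.331). The glutamine transporters Slc38a1 and Slc38a2 were at 0.05 and 0.14, the taurine transporter Slc6a6 at -0.25 and the creatine transporter Slc6a8 at -0.06, none of which passed (limma adjusted p of 0.278 to 0.870).

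Of 17 metal transporters, Slc41a3 was the only call. The zinc importer Slc39a4 had a difference of 0.74 (SE 0.28, limma adjusted p = 0.169), and its block adjusted p was 0.00132. The zinc exporter Slc30a1, whose transcription follows zinc, was at 0.29 (limma adjusted p = 0.195) and Slc39a10 at -0.12 (limma adjusted p = 0.668). Of 16 ion transporters none was called. Slc12a2, the sodium, potassium and chloride cotransporter, was at 0.33 (limma adjusted p = 0.164, block 0.0207), and its second probe rose by 0.41 (limma adjusted p = 0.0355).

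Of 12 transporters of organic acids, cations and anions none was called. Positive differences were seen for 9 of them, and for 7 without replicate 3 of hypoxia with inhibitor. All 4 members of Slc16, a number grouped here under monocarboxylates though its members can carry other substrates, were positive. Their median was 0.34, and none passed. These 4 genes were not among those set to be named in advance. Without replicate 3 of all groups Slc16a10 was at -0.02, Slc16a6 at 0.31, Slc16a9 at 0.30 and Slc16a13 at 0.58. Slc22a4, a transporter of ergothioneine, had the largest positive difference of all members, 0.90 (SE 0.33, limma adjusted p = 0.158), and passed with the replicate block (adjusted p = 0.00155). Slc35f1 of the sugar class was at 0.72 (SE 0.43, limma adjusted p = 0.401). The nucleoside transporter Slc29a1 was at -0.35 (limma adjusted p = 0.257). Of a panel of 27 genes named irrespective of outcome, 19 were members, 1 of them (Slc9a3r2) was called, and the other 18 lay between -0.35 and 0.53.

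**Figure D3:**
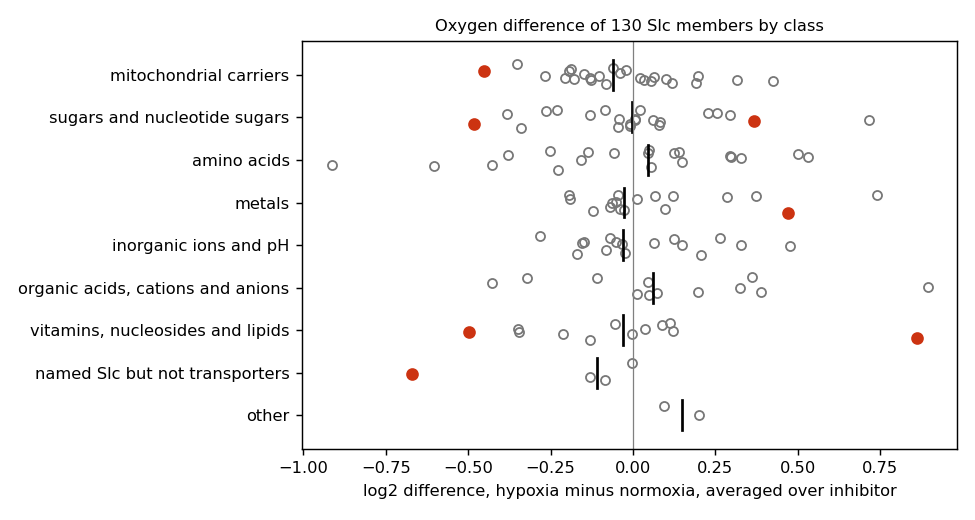
Log2 difference between hypoxia and normoxia averaged over inhibitor (horizontal axis) for each of the 130 members, by substrate class; filled points passed a limma adjusted p under 0.05 and black bars are class medians. The points of each class spread on both sides of 0 except for Slc66 genes (other) and the 4 non-transporters, and the 7 called members lie in 5 classes.

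Without inhibitor, hypoxia against normoxia called 0 of 130 members by limma, against 1.2% of the genes, with 16 members (12.3%) at an unadjusted p under 0.05, against 12.6% of the genes. The differences ran from -0.83 to 1.18, and the lowest adjusted p was 0.0740. With the replicate block 2 members (1.54%) were called, Slc22a4 and Slc39a4, against 2.63% of the genes. With inhibitor, 10 members (7.69%) had an unadjusted p under 0.05, against 12.7% of the genes. The block called 3 members (2.31%), Slc19a2, Slc22a4 and Slc22a23, against 2.06% of the genes.

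The inhibitor called no member by limma. In normoxia 0% of the genes and 0 of 130 members were called, with 1 member (0.769%) and 1.32% of the genes at an unadjusted p under 0.05. In hypoxia the background was again 0%, with 6 members (4.62%) and 3.24% of the genes at an unadjusted p under 0.05. Averaged over oxygen 0.0128% of the genes and 0 members were called, with 6 members (4.62%) and 3.55% of the genes at an unadjusted p under 0.05. For the interaction 0% of the genes and 0 members were called, with 0 members and 0.844% of the genes at an unadjusted p under 0.05. The replicate block, array weights and the fit without replicate 3 also called 0 members in these 4 comparisons. The block called 0% of the genes. Array weights called 0.0767% in normoxia, 0.115% in hypoxia, 0.179% averaged and 0% for the interaction. Without replicate 3 these shares were 0.153%, 0.307%, 0.703% and 0%. The largest averaged inhibitor differences were positive for Slc1a3 (0.69), Slc1a4 (0.64), Slc3a2 (0.42), Slc4a1 (0.38) and Slc7a5 (0.36), and negative for Slc46a3 (-0.52), Slc47a1 (-0.49), Slc45a4 (-0.41), Slc35g1 (-0.30) and Slc39a4 (-0.30), all with a limma adjusted p of 0.999.

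Several of these differences rested on 1 array. Slc7a5, the light chain that imports large neutral amino acids, had log2 signals of 11.17 and 11.12 in replicates 1 and 2 of hypoxia with inhibitor and 12.89 in replicate 3. The other 9 arrays lay at 10.92 to 11.51. Its partner Slc3a2 had 8.41 and 9.12 in replicates 1 and 2 and 10.12 in replicate 3, with 8.23 to 8.88 on the other 9 arrays. Slc1a4 had 8.04, 8.30 and 9.93 in the 3 replicates and 7.32 to 7.97 elsewhere. For these 3 genes replicate 3 of hypoxia with inhibitor was the highest of the 12 arrays.

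Slc7a3, a cationic amino acid transporter named here after its values were seen, moved with that array as well. In hypoxia with inhibitor it had 8.04, 7.96 and 10.18, in hypoxia 8.16, 8.03 and 7.70, in normoxia with inhibitor 9.17, 9.25 and 6.57, and in normoxia 9.29, 9.18 and 7.42. Replicate 3 was thus the lowest of its group in 3 groups and the highest in hypoxia with inhibitor. In replicates 1 and 2 Slc7a3 was lower in hypoxia.

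Replicate 3 of hypoxia with inhibitor exceeded the mean of replicates 1 and 2 by 2.19 for Slc7a3, 1.76 for Slc1a4, 1.75 for Slc7a5, 1.36 for Slc3a2 and 1.53 for Slc22a4. These 5 of 130 members, or 3.85%, were over 1 log2 unit higher, against 2.24% of the 7820 genes, and 4 of the 5 were among the 20 amino acid transporters. In the other groups replicate 3 was off in the same direction for Slc22a4 (0.82 to 1.21) and for Slc39a4 (-0.94 to -0.73). Replicate 3 of hypoxia with inhibitor was over 1 unit lower for 4 of 130 members, against 164 of the 7820 genes. These were Slc47a1 (-1.61), a drug and toxin exporter, Slc39a4 (-1.29), Slc46a3 (-1.21) and Slc24a1 (-1.07), a calcium exchanger. In either direction 6.92% of the members and 4.34% of the genes lay over 1 unit away. A list of 26 ATF4 response genes that holds no Slc gene had a mean log2 signal of 9.86 on that array and 8.27 to 8.60 on the other 11. Hypoxia-inducible factor targets had 9.58 there and 9.92 to 10.03 on the other 5 hypoxic arrays, and pluripotency markers had 6.48, the lowest of all 12. Endothelial markers were also at their lowest there, 11.40 against 11.95 to 11.98 on the other replicate 3 arrays. Replicates 1 and 2 of normoxia with inhibitor were close to it, at 11.43 and 11.46. Mural markers were at their highest there, 9.56 over 5 genes, with 9.48 in replicate 1 of hypoxia. The part of these lists in the Slc values was not tested. Without this array the averaged inhibitor difference was 0.35 for Slc1a4 (0.64 with it), 0.19 for Slc3a2 (0.42 with it) and 0.07 for Slc7a5 (0.36 with it), and that of Slc7a3 turned from 0.23 to -0.14, none of them called. Slc46a3 then lay at -0.32, Slc47a1 at -0.22, Slc35g1 at -0.16 and Slc39a4 at -0.09 for averaged inhibitor. Slc1a3, Slc45a4 and Slc4a1 did not rest on this array alone. In replicates 1, 2 and 3 the inhibitor differences of Slc1a3 were 0.44, 0.60 and 0.74 in normoxia and 0.06, 0.33 and 1.98 in hypoxia. For Slc45a4 they were -0.10, -0.52 and -0.16, and -0.55, -0.79 and -0.36. For Slc4a1 they were -0.01, 0.07 and 0.26, and 1.02, 0.48 and 0.48. Without replicate 3 of hypoxia with inhibitor, averaged oxygen called 9 members (6.92%), against 8.39% of the genes.

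**Figure D4:**
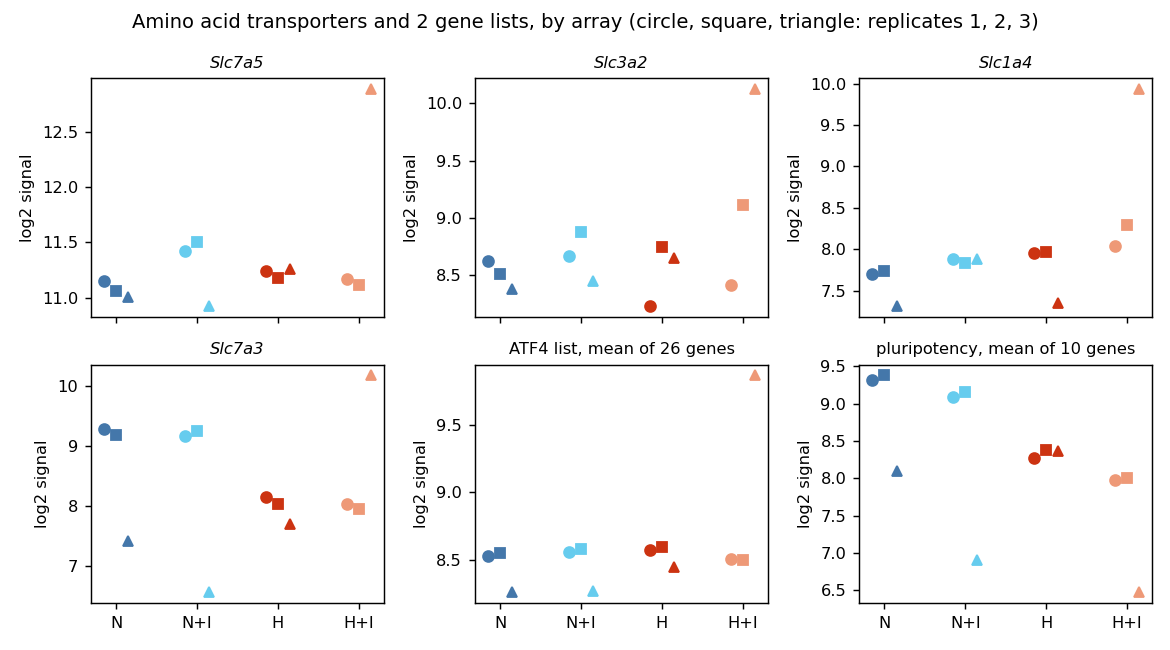
Log2 signal (vertical axes, not starting at 0) of 4 amino acid transporters and mean log2 signal of the ATF4 list and the pluripotency markers on the 12 arrays, by group (N normoxia, N+I normoxia with inhibitor, H hypoxia, H+I hypoxia with inhibitor). Replicate 3 of hypoxia with inhibitor is the highest array for the 4 transporters and the ATF4 list, at 9.86, and the lowest for pluripotency markers, at 6.48.

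The promoters of Slc1a4 and Slc3a2, high together on that array, are shown with the string TGATGNAA, the core of the element bound by ATF4, searched on both strands. Windows run from 250 bases before to 50 after the annotated start on the minus strand of GRCm38.p6 (RefSeq), at chr11:20332664-20332963 for Slc1a4 and chr19:8713848-8714147 for Slc3a2, and capitals mark the match.
Slc1a4: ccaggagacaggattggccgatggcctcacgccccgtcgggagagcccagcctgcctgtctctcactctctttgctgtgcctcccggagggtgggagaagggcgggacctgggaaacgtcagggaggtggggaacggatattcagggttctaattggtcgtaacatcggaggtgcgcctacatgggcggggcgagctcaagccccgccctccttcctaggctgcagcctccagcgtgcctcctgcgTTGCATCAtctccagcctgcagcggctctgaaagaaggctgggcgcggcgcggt
Slc3a2: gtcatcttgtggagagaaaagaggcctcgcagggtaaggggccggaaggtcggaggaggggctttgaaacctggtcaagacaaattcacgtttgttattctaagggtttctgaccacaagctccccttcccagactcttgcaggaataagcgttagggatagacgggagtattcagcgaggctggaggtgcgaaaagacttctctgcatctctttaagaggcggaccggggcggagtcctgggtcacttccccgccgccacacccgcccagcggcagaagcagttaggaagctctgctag
Slc1a4 holds 1 match, read on the opposite strand as TTGCATCA, and the Slc3a2 window holds none, which says only that these letters are not in that window. The string was found in 2.82% of member windows, 2.25% of windows of detected genes and 3.97% of all windows. The other members that hold it are Slc7a7 and Slc50a1. On that array they differed from the mean of replicates 1 and 2 by -0.45 and 0.27. No window was available for Slc7a5 and Slc7a3. Whether ATF4 acts on these genes was not tested.

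Replicate 3 against replicates 1 and 2, with groups kept in the fit, called 29 of 130 members by limma, 22.3%, against 21% of the genes. Of these 19 were higher and 10 lower, and the background was 10.7% higher and 10.3% lower. The largest rises were Slc35f1 (1.37, adjusted p = 0.00435), Slc22a4 (1.14, adjusted p = 0.000625), Slc29a4, a transporter of monoamines and adenosine (0.86, adjusted p = 0.00215), Slc36a1, a proton-coupled amino acid transporter (0.70, adjusted p = 0.00165) and Slc35f5 (0.53, adjusted p = 0.0181). The largest falls were Slc39a4 (-0.97, adjusted p = 0.000403), Slc35g1 (-0.81, adjusted p = 0.0109), Slc7a7, a light chain for cationic amino acids (-0.75, adjusted p = 0.0106), Slc45a4 (-0.55, adjusted p = 0.00970) and Slc39a11 (-0.48, adjusted p = 0.00397).

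Slc35f1 shows how that split meets the oxygen comparison. Its log2 signals in replicates 1 and 2 were 5.22 to 5.45 on the 4 normoxic arrays and 6.36 to 6.60 on the 4 hypoxic arrays. Those normoxic signals were close to the lowest signal detected per array, 5.08 to 5.24, so the size of its differences is uncertain. In replicate 3 its signals were 7.60 and 7.09 in normoxia and 7.47 and 6.96 in hypoxia. The oxygen levels separated in replicates 1 and 2 and not in replicate 3. Slc22a4 differed from this: it was higher in hypoxia in each replicate, with normoxic signals of 6.48 to 6.92 and hypoxic signals of 7.54 to 7.73 in replicates 1 and 2, and 7.91 and 7.85 against 8.52 and 9.13 in replicate 3.

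On the 8 arrays without replicate 3, averaged oxygen called 39 members, 30% of them, against 21.8% of the genes, with 21 higher and 18 lower, and the 7 calls on 12 arrays were among them. The largest rises were Slc46a3 (1.17), Slc35f1 (1.14) and Slc22a4 (0.87), and the largest falls Slc7a3 (-1.18), Slc1a3 (-0.90) and Slc1a2 (-0.82), with limma adjusted p-values from 9.14e-05 to 0.00333. The replicate 3 arrays themselves had the same sign of oxygen difference for 29 of the 39 members, or 74.4%, against 74.6% of the 1706 genes called in the same way. Slc7a3 had the opposite sign in replicate 3 (1.95), where it was 0.28 without inhibitor and 3.62 with it. For Slc1a3 it was -0.62 without and 0.62 with inhibitor, which average to -0.002, and Slc1a2 had -1.10. Within replicates 1 and 2 the glutamate transporters Slc1a2 and Slc1a3 thus fell with hypoxia together with Slc7a3.

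**Figure D5:**
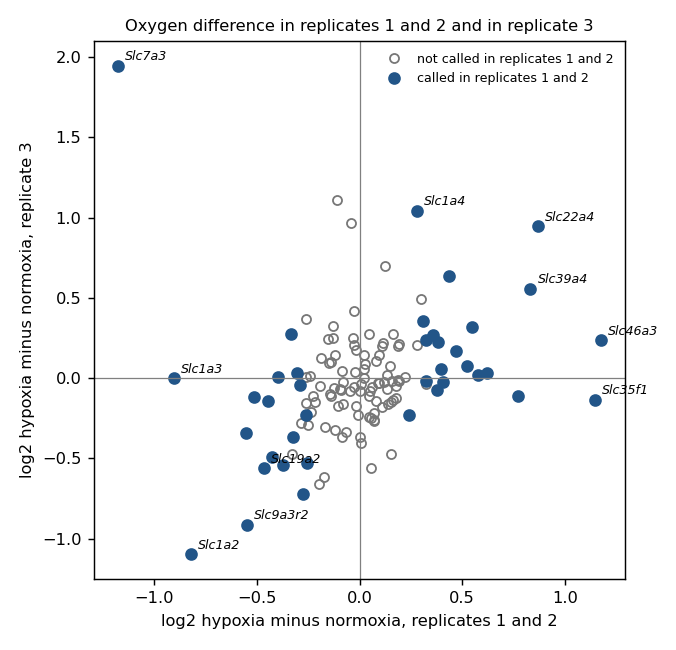
Log2 difference between hypoxia and normoxia averaged over inhibitor for each of the 130 members, in replicates 1 and 2 (horizontal axis, 8 arrays) and in replicate 3 (vertical axis, 4 arrays); filled points are the 39 members called in replicates 1 and 2. Slc46a3, Slc22a4, Slc39a4, Slc19a2 and Slc9a3r2 have the same sign on both axes, while Slc7a3 lies at -1.18 and 1.95.

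Among the 89 Slc genes detected on only some arrays, 2 were detected on 0 of the 6 normoxic arrays and on 5 of the 6 hypoxic arrays. They were named after their values were seen. Slc32a1, the transporter that loads inhibitory amino acids into vesicles, had log2 signals of 8.02, 7.99 and 5.35 in hypoxia and 6.83, 6.51 and 4.59 in hypoxia with inhibitor, the last of which was not detected. Its mean hypoxic signal was at least 2.62-fold higher than the lowest signal the normoxic arrays detect. Slc41a2, a magnesium transporter related to Slc41a3, was at least 1.29-fold higher. These genes were picked for this pattern, so no test is given, and they are not among the 130 members. The share of all genes on the array with this pattern was not counted, so their number is not a result about Slc genes.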

How the data were processed

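RNA of 12 samples was hybridised to Illumina mouse bead arrays. Per the file headers, the deposited table holds a linear intensity and a detection p-value for each probe and array. Of the deposited intensities 23.3% were below 0, so background had been subtracted. The submitters' processing notes name BeadStudio without a version. A processed intensity table from the authors was used as an alternative only.

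Intensities were corrected with the normal-exponential model of limma 3.58.1 (R 4.3.3) fitted from the detection p-values, raised by an offset of 16, quantile normalized and taken as log2. Probes detected at p under 0.05 on at least 3 arrays (14599 of 25697) were fitted as 4 group means. Tests were two-sided limma tests with Benjamini-Hochberg adjustment over all 14599 probes and a threshold of 0.05. Of the probes, 23978 had a gene symbol and 1719 were not named. All 130 members matched RefSeq by gene ID. An undetected group was compared only by a bound, set by the lowest detected signal on each array. The script was tested on simulated data. Figures were drawn with matplotlib 3.10.9.

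Same-numbered arrays deviated together: correlations of deviations from group means were 0.30 to 0.58 for oxygen without inhibitor, 0.11 to 0.25 with inhibitor and 0.38 to 0.64 for inhibitor in normoxia, but 0.03 to 0.08 for inhibitor in hypoxia. What a number stands for is not in the labels, and the tests above are unpaired. Alternatives were the authors' table, 75th percentile scaling, an offset of 50, other filters, any probe of a gene, a replicate block, array weights, and leaving out each array or replicate 3.

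Named genes were the called members, the 5 largest rises and falls of each averaged comparison, the 5 largest called for replicate 3, and a panel of 27 genes. Others are said to be chosen after their values were seen or are given as relatives of a named gene. The Slc16 genes, Slc24a1, Slc22a23, Slc12a3 and Slc30a6 fall outside this rule and are given for the values printed beside them. Members, classes and lists were chosen with earlier results of these data known.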

Additional observations from a re-analysis of the deposited data

Results flagged for a closer look

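Slc2a8, the intracellular glucose transporter, had inhibitor differences of opposite sign at the 2 oxygen levels in every replicate. With inhibitor its log2 signal changed by -0.02, -0.19 and -0.43 in replicates 1, 2 and 3 of normoxia, and by 0.17, 0.19 and 0.10 in hypoxia. The 2 mean differences lay 0.37 apart. In the fit over all probes the interaction did not pass (limma adjusted p = 1.00), and it was called for no member under any alternative run. The sign pattern was looked for among the named genes only and is not particular to Slc2a8. Slc12a3 had 0.09, 0.18 and 0.06 in normoxia and -0.17, -0.02 and -0.17 in hypoxia. Slc30a6 had -0.14, -0.17 and -0.03 in normoxia and 0.15, 0.14 and 0.05 in hypoxia. The share of all genes with this pattern was not counted.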

How the results depend on the processing

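The arrays have no read depth; their number and signal over background limit precision. Counts of called members are by limma throughout, with the share of the 7820 genes called in the same fit in parentheses. For averaged oxygen, 7 as reported, the replicate block, which uses the pairing of replicate numbers, gave 13 (10.1% of genes), array weights gave 36 (23.6%), leaving out replicate 3 gave 39 (21.8%), and leaving out single arrays gave 3 to 12. The lowest count, 3 (3.31% to 3.48%), came without replicate 2 of normoxia, either replicate 1 or 2 of normoxia with inhibitor, or replicate 2 of hypoxia. The highest, 12, came without replicate 3 of normoxia with inhibitor (7.2%). The authors' table gave 6 (5.35%), 75th percentile scaling 6 (5.87%) and an offset of 50 gave 9 (7.67%). Fitting only probes detected on all 12 arrays gave 8 (7.47%), and no filter gave 7 (5.64%). For hypoxia without inhibitor, 0 as reported, an offset of 50 gave 1 (1.78%), the block 2 (2.63%), array weights 15 (9.42%) and leaving out replicate 3 gave 15 (9.82%), and leaving out single arrays gave 0 to 4, with 4 only without replicate 3 of hypoxia with inhibitor (2.67%). For hypoxia with inhibitor, 1 as reported, the block gave 3 (2.06%), array weights 12 (9%), leaving out replicate 3 gave 17 (11.7%) and single arrays 0 to 2 (0.269% to 2.1%). For replicate 3 against the others, 29 as reported, leaving out single arrays gave 19 to 46, with 19 without replicate 3 of normoxia (9.72%) and 46 without replicate 3 of hypoxia with inhibitor (29.7%). The 4 inhibitor and interaction comparisons stayed at 0 members under all alternatives run. The largest share of genes called in them was 0.703%, for averaged inhibitor without replicate 3. No named result changed sign past the threshold. The cause of these changes was not tested, except that a fit without an array has fewer samples.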
